A study of Homo sapiens with 4 samples.

Results

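The 10 genes described here make, degrade or respond to retinoic acid: ALDH1A1, ALDH1A2, ALDH1A3, CYP26A1, CYP26B1, CYP26C1, RARA, RARB, RARG and RXRA. The peaks of 4 ATAC-seq libraries were merged wherever they overlapped, and every merged region that touched 1 of these genes, extended by 20 kb on each side, was taken. That gave 171 of 164301 merged regions. ATAC-seq cuts open chromatin with a transposase, so a peak marks DNA that was accessible, and no RNA was measured in these libraries.

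All libraries came from pancreatic progenitors derived from MEL1, an established human embryonic stem cell line, with 50000 cells per library. The study's methods give the line as MEL1 INS GFP/W, with a GFP reporter in an INS allele, and the labels as MEL1. The cells of both conditions were kept in EF6 medium, which is DMEM with B27, EGF at 50 ng/ml, bFGF at 10 ng/ml and 616452 at 10 μM, an inhibitor of the TGF-β type I receptor. For 7 days 2 libraries' cells received DMSO, the solvent control, and the cells of the other 2 libraries received 1 μM I-BET151, which blocks the acetyl-lysine pockets of BET proteins. The progenitors had been exposed to TTNPB, a synthetic retinoid, during their earlier differentiation, and the EF6 recipe names no retinoid, although the standard B27 supplement contains retinyl acetate, a precursor of retinoic acid. The labels do not say whether replicates came from separate cultures, so p-values here measure the spread between libraries. In such bulk samples, fewer cells with an open site and a less open site in every cell cannot be told apart.

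Retinoic acid is formed from retinal by the ALDH1A dehydrogenases and is hydroxylated and cleared by the CYP26 enzymes of the cytochrome P450 family. It binds the receptors RARα, RARβ and RARγ, which pair with an RXR partner and sit on direct repeats of a hexamer known as retinoic acid response elements. Retinoic acid made by the mesoderm, mainly through ALDH1A2, is needed to pattern the foregut endoderm and to form the pancreas. RARB and CYP26A1 are textbook direct targets, through which the pathway feeds back on itself.

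The progenitor label was compared with the accessible promoters. Of 10 pancreatic progenitor markers, 7 had a peak within 1 kb of the start site in all 4 libraries, among them NKX6-1, SOX9, FOXA2 and GATA4. PDX1 had one in the I-BET151 libraries only, and PTF1A had one in no library. Neither pluripotency marker, POU5F1 or NANOG, had a peak in any library. Of 5 endocrine markers, NEUROG3, INS and GCG had none, CHGA had one in 3 libraries and NEUROD1 in I-BET151 replicate 1. Of 3 liver markers, ALB and AFP had none and TTR had one in DMSO replicate 1. Of 4 mesenchymal markers, 1 had a peak in each DMSO library and 3 had one in each I-BET151 library, the additional ones being PRRX1 and COL1A2. The intestinal marker CDX2 had a peak in all 4. The part of these marker differences in the results below was not tested.

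The libraries differed in depth and in the number of peaks. The lists held 82568 and 38295 peaks for DMSO replicates 1 and 2, and 84995 and 111324 peaks for I-BET151 replicates 1 and 2. The values of the peaks imply depths of about 38.7 and 36.6 M reads for DMSO and about 12.5 and 16.0 M reads for I-BET151. Depth, list length and treatment therefore cannot be told apart. For this reason each peak was also described by its percentile, which is its rank by fold enrichment within its own list on a scale to 100. The percentile does not depend on the scale of the fold enrichment. It still depends on the length of the list, since a given peak ranks higher in a list with more weak peaks.

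Direct repeats with a spacer of 5 bases, called DR5, are the classic response element of the receptors described, and are shown because they are the sequence feature by which these loci are best known. Receptor binding was not measured. The hexamer AGGTCA was searched on both strands together with its variant AGTTCA and with the forms that start with G in place of A, GGGTCA for the first and GGTTCA for the variant. In all 12 DR5 sites were found at the 10 loci. Of these, 4 lay inside an accessible region. The sequences are those of hg38, 5′ to 3′ on the strand of the repeat, with the repeated hexamers in capitals. The fifth site shown is the one next to the CYP26A1 start site, which lay in no called region.
RARB promoter, chr3:25428204-25428232, plus strand: gggtagGGTTCAccgaaAGTTCActcgca
CYP26A1 upstream region, chr10:93071897-93071953, plus strand: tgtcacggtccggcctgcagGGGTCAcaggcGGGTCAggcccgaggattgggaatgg
CYP26A1 next to the start site, chr10:93073797-93073825, minus strand: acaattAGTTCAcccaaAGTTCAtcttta
RARA intron 2, chr17:40341633-40341689, plus strand: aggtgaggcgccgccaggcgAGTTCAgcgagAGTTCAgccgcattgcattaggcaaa
RXRA intron 1, chr9:134375498-134375554, plus strand: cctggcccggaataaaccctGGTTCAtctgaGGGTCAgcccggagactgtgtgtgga

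A DR5 site was present in 2.34% of the member regions and in 0.22% of all merged regions, whose median lengths were 452 and 405 bp. The genes were chosen for their role in this pathway, and the shares are a description. Direct repeats with spacers of 2 bases or 1 base were found in 0 member regions, against 0.345% and 0.44% of all merged regions. Among the promoter windows, from 250 bp before to 50 bp after the canonical start site, a DR5 occurred at RARB and CYP26A1 and at 0.055% of all protein-coding genes.

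The 4 accessible DR5 sites had different patterns across the libraries. The RARB site, centred 45 bp before the start site and 28 bp from the summit, lay in a region called in all 4 libraries. The RARA site lay 32481 bp into the gene, 203 bp from the summit of a region called in all 4 libraries. The CYP26A1 site lay 1968 bp before the start site, in a region called in both I-BET151 libraries and in neither DMSO library. The RXRA site lay in a region called only in I-BET151 replicate 2, with a fold enrichment of 3.81.

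Over the 10 loci, regions were called more often with I-BET151. Of the 171 regions, 72 were called in DMSO replicate 1, 28 in DMSO replicate 2, 87 in I-BET151 replicate 1 and 131 in I-BET151 replicate 2. The means were 50.0 ± 31.1 (SD, n = 2) and 109 ± 31.1 (SD, n = 2). The groups did not overlap (exact permutation p = 0.33, two-sided), and a design with 2 libraries per condition cannot go lower. As a share, 42.1% and 16.4% of the member regions were called in the DMSO lists and 50.9% and 76.6% in the I-BET151 lists, against 47.9%, 22.9%, 49.2% and 67.7% of all merged regions.

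A region called in both I-BET151 libraries and in neither DMSO library is described as gained, and the converse as lost. At the 10 loci 47 regions (27.5%) were gained, where 17.0% of all merged regions were. Only 1 member region was lost, or 0.585%, where 2.37% of all merged regions were. A further 20 regions (11.7%) were called in all 4 libraries, against 15.6% of all merged regions, and 103 had other patterns. Most of the others were called in 1 library alone. These included 40 in I-BET151 replicate 2 (23.4%, against 22.3% of all merged regions) and 28 in DMSO replicate 1 (16.4%, against 18.1%). When each list was cut to its 38295 strongest peaks, 9 of 66 member regions (13.6%) were gained and 4 (6.06%) were lost, against 9.19% and 5.85% of all regions. With a 50 kb flank in place of 20 kb, 6 of 223 member regions (2.69%) were lost, against 2.37% of all regions. Single libraries also moved the counts. Without DMSO replicate 2 there were 29 lost member regions (17.1%, against 20.9% of all), and without I-BET151 replicate 2 there were 6 (4.38%, against 5.82%). Without DMSO replicate 1 there were 2 (1.4%, against 4.56%). Without I-BET151 replicate 1 there were 87 gained member regions (54.0%, against 43.7% of all).

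**Figure D1:**
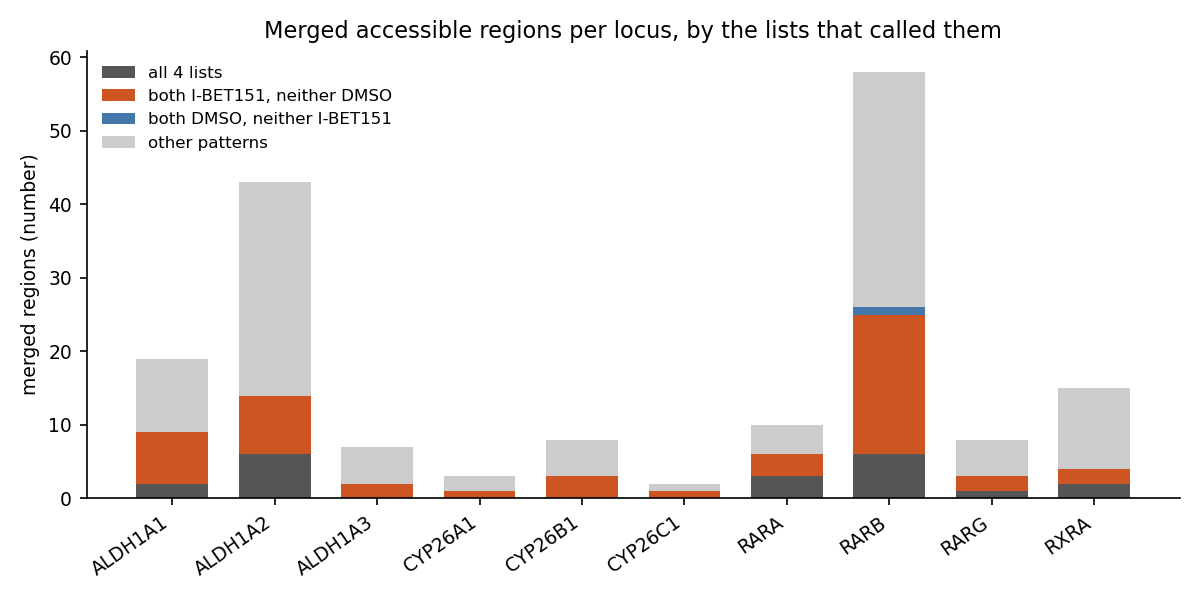
Bars give the number of merged accessible regions at each locus (y axis), split by the lists that called them. CYP26A1 and CYP26C1 share 2 regions, which are drawn at both. RARB had 58 regions, 19 of them gained, and ALDH1A2 had 43, 8 of them gained, and the single lost region was at RARB.

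Of the 47 gained regions, 35 lay upstream of the canonical transcript, 9 in introns, 2 downstream and 1 in a coding exon, where 105 of all 171 member regions lay upstream and 46 in introns. Over 1 kb from every protein-coding start site of the gene were 40 of the 47 gained regions and 156 of all 171. They rested on 6 to 30 reads at the summit in I-BET151 replicate 1 and on 9 to 59 in I-BET151 replicate 2. The lower of the 2 fold enrichments ran from 3.03 to 11.0 with a median of 4.71, against a median of 5.12 over all gained regions.

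The annotated spans of some of these genes are long and cover neighbours. RARB spans 910 kb and ALDH1A2 544 kb in GENCODE, while their canonical transcripts start far inside. For 69 of the 171 regions the nearest canonical start site of a protein-coding gene belonged to another gene. Among them were 35 of the 43 at ALDH1A2, where AQP9 and LIPC lie in the span. Start sites of other transcripts were not counted here, and some of these regions lie nearer to one of their own gene. Of the 102 regions nearest to the canonical start site of their own gene 31 (30.4%) were gained, and of the other 69 regions 16 (23.2%) were. With the loci limited to the canonical transcript and 20 kb on each side, 19 of 87 regions (21.8%) were gained, against 17.0% of all.

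A locus score was then computed for each gene as the mean percentile of its regions in a library, with 0 for a region not called. Averaged over the 10 genes it was 13.4 and 4.18 in DMSO replicates 1 and 2, and 21.8 and 32.1 in I-BET151 replicates 1 and 2. The mean lay above the DMSO range in both I-BET151 libraries, with a difference of 18.2 (exact permutation p = 0.33, two-sided, 2 against 2). Over 18865 protein-coding loci the median difference was 10.7 and 82.8% had a higher mean with I-BET151. The median over the 10 genes was 20.3. For 8 of the 10 both I-BET151 scores lay above both DMSO scores, which held for 51.3% of all loci, and ALDH1A2 and CYP26A1 were the exceptions. The 10 scores are not all separate, since both regions of CYP26C1 also count at CYP26A1.

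**Figure D2:**
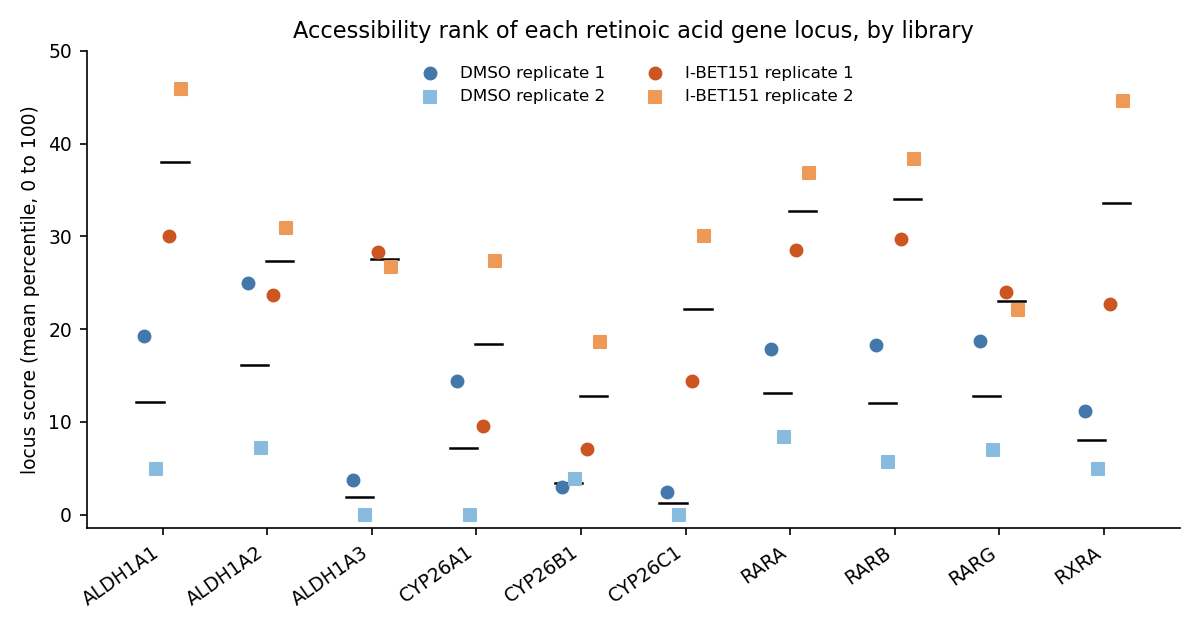
Points give the locus score of each gene (y axis, mean percentile of its regions within a list) in each of the 4 libraries, and short lines give the mean of each condition. Both I-BET151 points lie above both DMSO points for 8 genes, while at ALDH1A2 and CYP26A1 DMSO replicate 1 lies above I-BET151 replicate 1.

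The genes of retinoic acid synthesis had 69 regions, of which 17 (24.6%) were gained and 0 lost. ALDH1A1 (chr9:72900671-73080442, minus strand) is a broad retinal dehydrogenase that also marks progenitor cells in several tissues. Its locus score was 19.3 and 4.88 with DMSO and 30.0 and 45.9 with I-BET151. Its 19 regions included 7 gained ones. One of them was the promoter of the canonical transcript, with a summit 132 bp before the start site. It had fold enrichments of 5.2 and 6.86 in I-BET151 replicates 1 and 2 and no call with DMSO. Another lay 119 bp before the start of transcript ALDH1A1-204. The region with the highest mean fold enrichment overlapped coding exon 11 and was called in all 4 libraries. It stood at 5.37 and 4.24 with DMSO and 10.7 and 9.91 with I-BET151, and its rank did not pass the test (limma adjusted p = 0.589). Here and below, limma tests the rank among the regions called in all 4 libraries, while the percentile ranks all peaks of a list.

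ALDH1A2 (chr15:57953424-58497866, minus strand) encodes the main retinal dehydrogenase of the embryo. Its score was 25.0 and 7.2 with DMSO and 23.7 and 30.9 with I-BET151, so the conditions overlapped. The promoter, with a summit 536 bp before the start site, was called in all 4 libraries. Its fold enrichment was 3.23 and 3.31 with DMSO and 6.54 and 7.58 with I-BET151, and its percentile was 19.5 and 22.4 against 64.5 and 67.4. Both I-BET151 values lay above both DMSO values on either scale. For its rank among the regions called in all 4 libraries the limma adjusted p was 0.248.

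ALDH1A3 (chr15:100877714-100916626, plus strand) encodes a further retinal dehydrogenase, known in the pancreas as a marker of dedifferentiated β cells. Its score was 3.77 and 0 with DMSO and 28.3 and 26.7 with I-BET151, the smallest spread between I-BET151 replicates among the 10 genes. No peak lay within 1 kb of its canonical start site in any library. A gained region 6587 bp before the start site had fold enrichments of 11.0 and 12.3, on 25 and 44 reads, which were the highest lower-of-2 values among the 47 gained regions. The 200 bases around its summit are given because of that value, and they hold none of the direct repeats searched.
ALDH1A3 upstream region, chr15:100873144-100873343, plus strand: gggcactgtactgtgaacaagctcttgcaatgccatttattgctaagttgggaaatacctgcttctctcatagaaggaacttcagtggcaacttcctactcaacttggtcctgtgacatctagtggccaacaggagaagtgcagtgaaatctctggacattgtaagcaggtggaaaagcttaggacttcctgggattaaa
The other gained region of ALDH1A3, 38420 bp after the start site, had values of 8.65 and 10.3 and lay 1106 bp before the start of the neighbouring LRRK1.

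The genes of retinoic acid clearance had few regions, 11 in all, of which 4 (36.4%) were gained, 0 lost and 0 called in all 4 libraries. CYP26A1 (chr10:93073475-93077885, plus strand) encodes the enzyme that retinoic acid itself induces most strongly. Its score was 14.4 and 0 with DMSO and 9.57 and 27.3 with I-BET151, and the conditions overlapped. The gained region with the DR5 site printed above (chr10:93071863-93072399) had fold enrichments of 4.65 and 6.86, on 15 and 31 reads. A separate region with a summit 1335 bp before the start site was called only in DMSO replicate 1, at 2.79. The DR5 site 82 bp before the start site lay in no called region, and a site without a call is not shown to be closed at this depth.

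CYP26C1 (chr10:93060798-93069540, plus strand) lies beside CYP26A1, and its 2 regions both belong to the CYP26A1 locus as well. Its score of 2.38 and 0 with DMSO and 14.4 and 30.0 with I-BET151 therefore rests on the same gained region and is not a separate observation. CYP26B1 (chr2:72129238-72147862, minus strand), which clears retinoic acid in limb and germ cells among others, scored 3.02 and 3.8 with DMSO and 7.06 and 18.6 with I-BET151. None of the 3 CYP26 genes had a peak within 1 kb of the canonical start site. At CYP26B1 gained regions flanked the start site at 2739 bp on either side. The upstream one had 4.71 and 4.99. The intronic one had 3.03 and 4.44 and lay 708 bp before the start of transcript CYP26B1-203. The CYP26B1 region with the highest mean fold enrichment, 32079 bp after the start site, stood at 3.16 and 3.43 with DMSO and 6.59 in I-BET151 replicate 2, with no call in I-BET151 replicate 1.

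The receptor genes had 91 regions, of which 26 (28.6%) were gained and 1 was lost. RARA (chr17:40309180-40357643, plus strand) encodes the most widely expressed RAR. Its score was 17.8 and 8.41 with DMSO and 28.5 and 36.8 with I-BET151. The canonical start site had a peak only in I-BET151 replicate 2, at 4.74. A second promoter in intron 1 (chr17:40317559-40318512), with a summit 111 bp before the start of transcript RARA-204, was called in all 4 libraries. Its fold enrichment was 4.28 and 3.06 with DMSO and 11.2 and 11.1 with I-BET151. Its percentile was 64.0 and 13.2 against 92.6 and 89.1, with no overlap, and it moved up in rank (normal score difference 1.61 ± 0.421 SE, limma adjusted p = 0.0403). The call was lost without DMSO replicate 1, DMSO replicate 2 or I-BET151 replicate 1 (limma adjusted p = 0.0757, 0.428 and 0.0691), with ranks by −log10 p (0.27) and with centred log2 pileup (0.63). In contrast the intron 2 region with the DR5 site (chr17:40341232-40342342) stood at 3.07, 3.51, 3.94 and 4.1 in the same order, with percentiles of 13.2, 30.4, 10.9 and 17.2 (limma adjusted p = 0.23).

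RARB (chr3:24687887-25597932, plus strand) encodes RARβ, whose promoter holds a well-known response element. Its score was 18.3 and 5.69 with DMSO and 29.7 and 38.3 with I-BET151. The promoter region around the DR5 site (chr3:25427874-25428577) was called in all 4 libraries, at fold enrichments of 6.06 and 6.64 with DMSO and 8.6 and 8.28 with I-BET151. Within the lists it ranked lower with I-BET151, at percentiles of 81.6 and 73.0 against 89.3 and 88.3. The fold enrichment and the percentile thus pointed in opposite directions, both without overlap. The difference in rank among the regions called in all 4 libraries did not pass the test (normal score difference -0.96 ± 0.400 SE, limma adjusted p = 0.153).

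Away from the promoter of the canonical transcript, RARB had 19 gained regions, 13 of them between 28484 and 464331 bp upstream. The one 598922 bp upstream had its summit 1 bp from the start of transcript RARB-215. The region 654208 bp upstream, at 10.1 and 13.3, and the one 136484 bp upstream, at 8.72 and 10.6, had the highest lower-of-2 values after ALDH1A3. For the former the nearest canonical start site was that of THRB, a thyroid hormone receptor gene, at 279205 bp. Transcript RARB-210 starts nearer, at 55268 bp. The RARB region with the highest mean fold enrichment lay 747579 bp upstream. It stood at 4.92 and 3.82 with DMSO and 11.5 and 11.3 with I-BET151 (limma adjusted p = 0.135). Its nearest canonical start site was also that of THRB, while it lay 7203 bp from the start of transcript RARB-214. A region in intron 5 (chr3:25592361-25592991), 72140 bp from the start of TOP2B, was called in all 4 libraries. Its fold enrichment was 3.25 and 3.51 with DMSO and 8.92 and 11.2 with I-BET151. Its percentile was 20.4 and 30.4 against 83.5 and 89.5, and it moved up in rank (normal score difference 1.53 ± 0.392 SE, limma adjusted p = 0.0376). The call was lost without DMSO replicate 1 or DMSO replicate 2 (limma adjusted p = 0.356 and 0.0959), with ranks by −log10 p (0.131) and with centred log2 pileup (0.149). With equal numbers of peaks the region was no longer in all 4 lists and had no value. The lost region, 183377 bp after the start site, had 4.14 and 3.61 with DMSO.

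**Figure D3:**
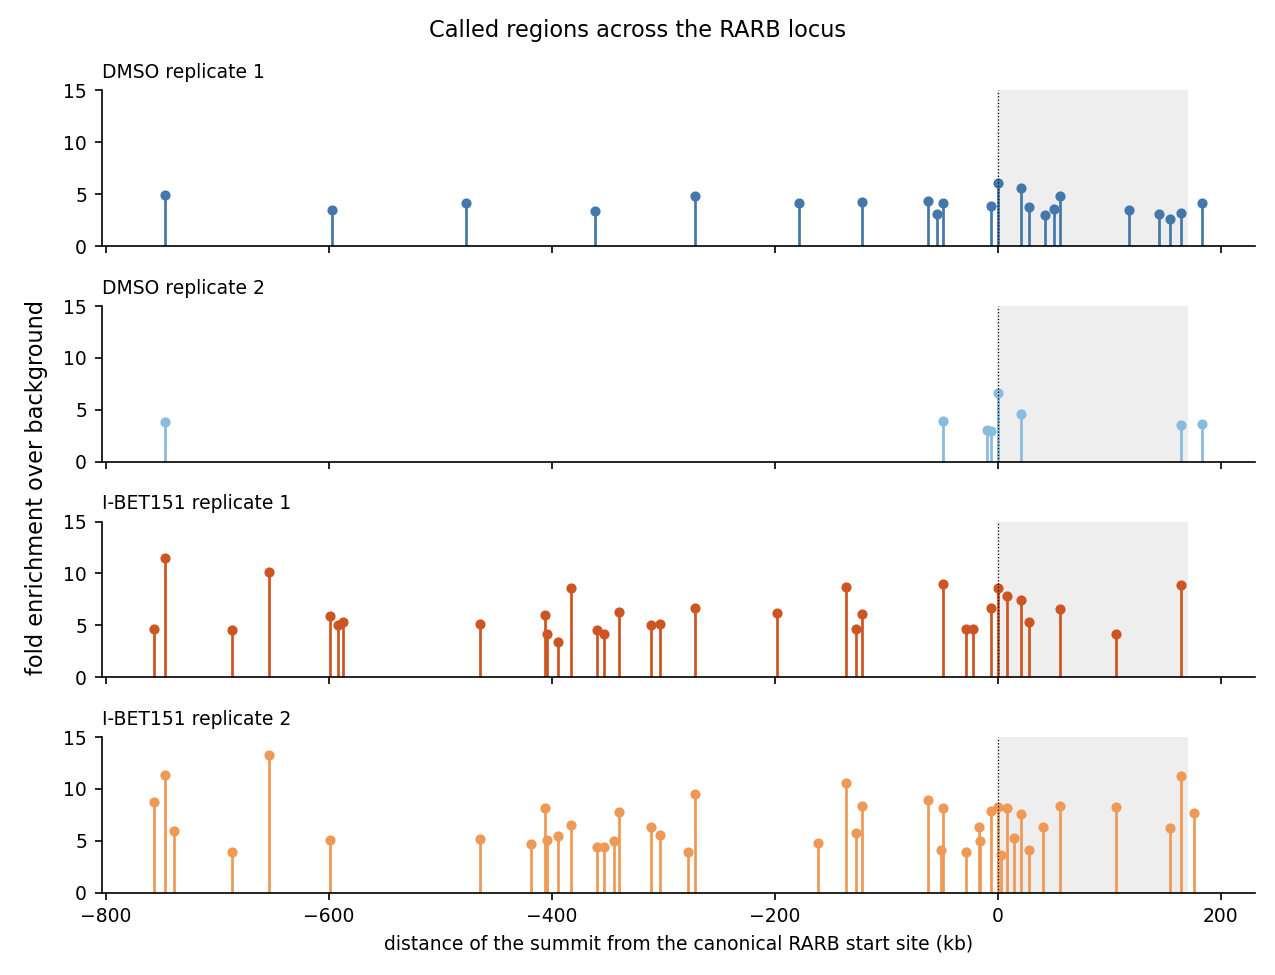
Each line is a called region at the RARB locus, placed by the distance of its summit from the canonical start site (x axis, kb), and its height is the fold enrichment in that library (y axis). The shaded span is the canonical transcript. The region at the start site is called in all 4 libraries at 6.06 to 8.6, while the upstream regions are denser in both I-BET151 libraries.

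RARG (chr12:53210567-53232980, minus strand), which encodes the RAR common in epithelia, scored 18.7 and 6.93 with DMSO and 24.0 and 22.0 with I-BET151. Its promoter was gained, with a summit 260 bp before the start site and fold enrichments of 4.62 and 4.92. The RARG region with the highest mean fold enrichment lay 17 bp before the start of the neighbouring MFSD5, at 3.06 and 3.65 with DMSO and 9.38 and 9.01 with I-BET151 (limma adjusted p = 0.0823). RXRA (chr9:134317098-134440585, plus strand), which encodes the partner of all 3 RARs, scored 11.2 and 4.93 with DMSO and 22.7 and 44.6 with I-BET151. Its promoter was also gained, at 5.58 and 3.37. The second value stood at the percentile of 5.31 in its list, near the limit of calling. The RXRA region with the highest mean fold enrichment, 123380 bp after the start site, stood at 3.9 in DMSO replicate 1, was not called in DMSO replicate 2, and stood at 11.2 and 14.0 with I-BET151. All 15 RXRA regions were called in I-BET151 replicate 2, against 5 and 3 in DMSO replicates 1 and 2 and 5 in I-BET151 replicate 1. Of all merged regions, 67.7% were called in I-BET151 replicate 2, against 47.9%, 22.9% and 49.2% in those libraries.

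Across the 10 genes, the region nearest the canonical start site was gained at ALDH1A1, RARG and RXRA, was called in all 4 libraries at ALDH1A2 and RARB, and was called in 1 library at RARA. The other 4 genes had no peak within 1 kb. Of 20007 protein-coding genes, 7.36% had a gained promoter and 51.7% a promoter called in all 4 libraries.

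The 20 regions called in all 4 libraries could be compared by rank without missing values. All 20 had both I-BET151 fold enrichments above both DMSO ones, as did 90.1% of all shared regions, so this scale separates the libraries nearly everywhere. By percentile 12 of the 20 were higher with I-BET151 without overlap and 2 were lower, against 40.8% and 10.3% of all shared regions. The limma test of normal scores over all 25627 shared regions called 3 of the 20 upward and 0 downward at an adjusted p under 0.05, against 3.41% and 1.96% of all shared regions. At an unadjusted p under 0.05 there were 8 of the 20, against 24.9% of all. The third called region (chr15:58269891-58270506) lay in the ALDH1A2 span, 204602 bp before its canonical start site and nearest to AQP9. It stood at 4.13 and 3.48 with DMSO and 9.91 and 13.2 with I-BET151, with percentiles of 58.2 and 29.4 against 88.1 and 95.0 (normal score difference 1.51 ± 0.386 SE, limma adjusted p = 0.0377). This call was lost without DMSO replicate 1 or DMSO replicate 2 (limma adjusted p = 0.19 and 0.295), with ranks by −log10 p (0.139) and with centred log2 pileup (0.331). All 3 differences kept their sign under these settings.

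**Figure D4:**
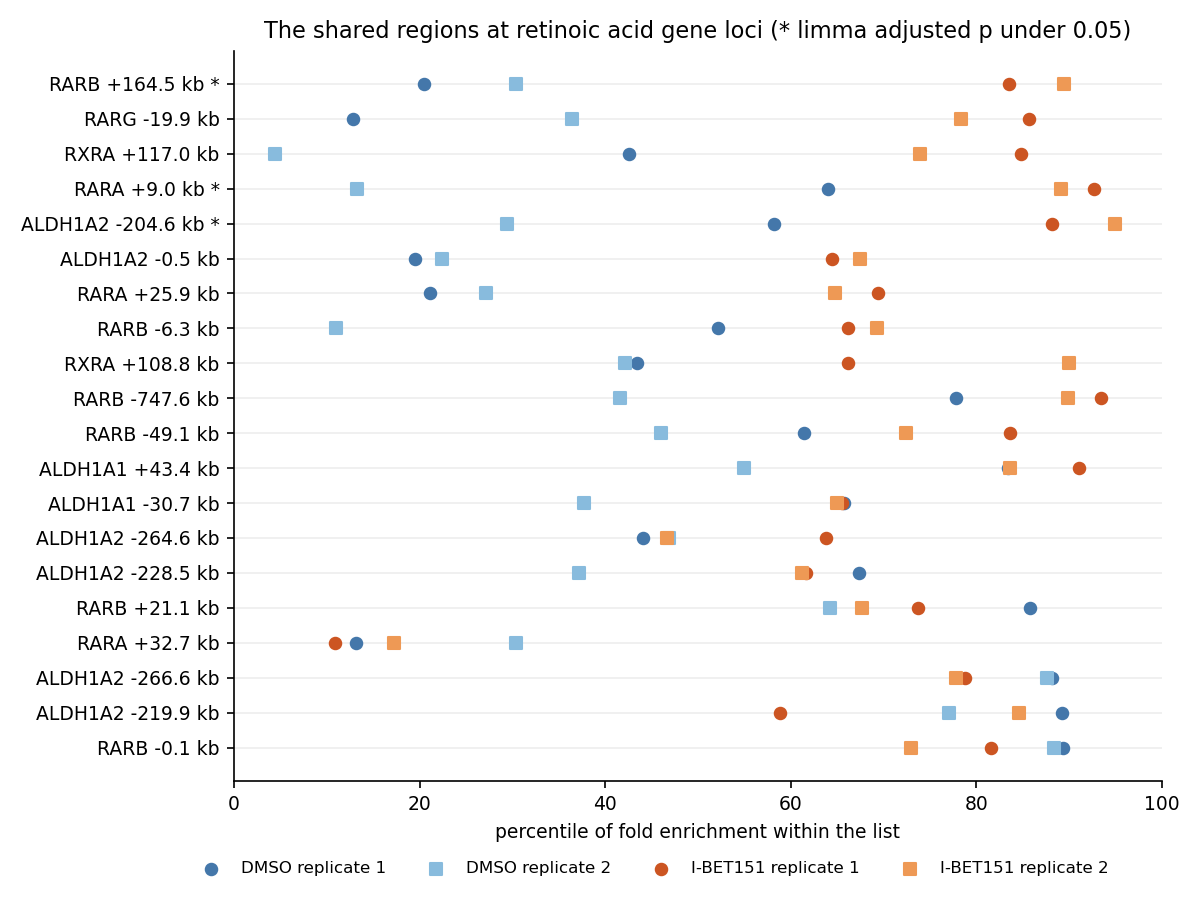
Each row is a region called in all 4 libraries, named by its locus and the distance of its summit from the canonical start site, and the points give its percentile within each list (x axis). The 3 starred regions moved up in rank among the shared regions. The RARB promoter at the bottom lies at 81.6 and 73.0 with I-BET151 and at 89.3 and 88.3 with DMSO.

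Short motifs of other factors were searched within 100 bp of the summits, on both strands. The FOXA motif TGTTTAC was found at 6.43% of the member regions and 4.57% of all regions, the GATA motif AGATAAG at 1.75% and 5.17%, and the ONECUT motif ATCAATC at 1.17% and 1.86%. A CTCF consensus was found at 3 member regions (1.75%), against 1.86% of all. FOXA, GATA and ONECUT factors are regulators of the foregut endoderm, and CTCF marks chromatin loop anchors. A match is a description of the sequence only.

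The remaining genes of the pathway were described from a list of 38. Their loci held 360 regions outside those above, of which 73 (20.3%) were gained and 10 (2.78%) lost, and all 38 had a higher mean score with I-BET151, with a median difference of 13.9. Over all merged regions 17.0% were gained and 2.37% lost, and over all loci 82.8% were higher with a median difference of 10.7. The 7 genes of retinol uptake and binding had 11 gained regions of 58 (19.0%). Among them the promoters of STRA6, the retinol uptake receptor, and of CRABP2, which delivers retinoic acid to the nucleus, were gained. The 9 retinol and retinal oxidoreductases had 8 gained regions of 52 (15.4%) and a median difference of 11.0. The other RXR genes, RXRB and RXRG, had 3 of 17 (17.6%). The 6 corepressors and coactivators had 20 of 89 (22.5%). The 14 retinoic acid responsive genes had 31 of 144 (21.5%) gained and 6 (4.17%) lost. MEIS1 had the most of both among the 14, with 5 gained and 2 lost regions. HOXA5 had 4 gained regions and 1 lost region, and NR2F2 had 4 gained and 0 lost. PLAAT4 had 0 gained and 1 lost, and HOXB1 and RARRES1 had 0 of either.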

How the data were processed

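The 4 libraries were grouped by the sample labels. Per the study's methods, the authors aligned reads to hg38 with Bowtie2 2.2.5, filtered them with sambamba, removed duplicates with picard and mitochondrial reads with samtools, and called peaks in each library with MACS2 2.1.2 without a control. The deposited lists give a display score (not used), the fold enrichment (ratio of pileup to background at the summit), and −log10 p and −log10 q per peak. The methods state a p threshold whose −log10 is 5, while the lists hold weaker peaks, so −log10 p of at least 5 and of at least 10 were tried as alternatives. Summit reads were recovered from fold enrichment and −log10 p in 100% of peaks, and counts below cover counting error only. Depth is a separate estimate, which also rests on an assumed genome size and on the shortest peak of each list. That peak was 200 and 233 bp in DMSO replicates 1 and 2, and 200 and 256 bp in I-BET151 replicates 1 and 2. The depths were not checked against read totals.

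Peaks overlapping by 1 bp or more were merged. Gene spans, canonical transcripts and start sites came from GENCODE release 44. For limma, the 25627 shared regions were ranked among themselves by fold enrichment in each list, and these ranks were turned into normal scores. Benjamini-Hochberg adjustment was over all 25627, and this model was tested on simulated data. The limma values are not tests of the percentiles, which rank a region among all peaks of its list. Single values were compared with exact permutation tests. The genes named are all 10 members, each with its start-site region and its region of highest mean fold enrichment, plus the regions called by limma and the strongest gained and lost regions. The members and lists were chosen with earlier results of these data known.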

Additional observations from a re-analysis of the deposited data

How the results depend on the processing

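With 2 libraries per condition an exact permutation test of a single value could not go below p = 0.33, and peak lists show no signal below the calling limit, so a missing call is no measure of closed chromatin. The mean locus score difference (I-BET151 minus DMSO) was positive under every alternative. It ran from 12.9 with equal numbers of peaks to 26.9 with −log10 p of at least 10 on all 4 libraries. Leaving a library out gave 13.6 to 30.3, and replicate pairs 8.4 and 27.9. Of 120 such single-gene differences 118 were positive, the others being -1.01 at ALDH1A2 and -4.7 at CYP26B1 with equal numbers of peaks. In the main setting, the only one compared, 82.8% of all loci were positive (median 10.7). Where a value below moved, the cause was not tested unless the setting itself leaves fewer peaks or a shorter locus.

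The 47 gained regions became 27 of 85 with −log10 p of at least 10 (31.8%, against 23.3% of all regions). They became 9 with equal numbers of peaks (13.6%, against 9.19%). Within 20 kb of the canonical transcript, an alternative added after seeing the data, they became 19 (21.8%, against 17.0%). With a library left out they ranged from 47 without DMSO replicate 2 (27.6%, against 18.3%) to 87 without I-BET151 replicate 1 (54.0%, against 43.7%). The 1 lost region became 0 with −log10 p of at least 10 (against 0.269% of all regions). With at least 5 it became 2 (1.24%, against 1.94%) and with equal numbers of peaks 4 (6.06%, against 5.85%). With a 5 kb flank it became 0 (against 2.37%) and with a 50 kb flank 6 (2.69%, against 2.37%). With a library left out it ranged from 1 to 29, with 29 without DMSO replicate 2 (17.1% of member regions, against 20.9% of all), 6 without I-BET151 replicate 2 and 2 without DMSO replicate 1.

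The 3 regions moving up in rank became 1 of 4 with −log10 p of at least 10, 0 with ranks by −log10 p, 20 with log2 pileup scaled to depth and 0 with the same values centred. With a library left out they ranged from 0 to 5, with 0 without either DMSO library, 2 without I-BET151 replicate 1 and 5 without I-BET151 replicate 2, and regions moving down ranged from 0 to 1. Log2 pileup scaled to depth had a median shift of 1.57 in replicate pair 1 and 2.25 in pair 2 over all shared regions, so its calls are relative to no centre. Over all shared regions 875 moved up and 503 down (63.5% upward), against 597 and 1109 with centred log2 fold (35.0%), 174 and 1188 with centred pileup (12.8%), 24614 and 16 uncentred, and 8 and 27 with ranks by −log10 p. Without DMSO replicate 1 there were 117 and 119, without DMSO replicate 2 308 and 177, and without I-BET151 replicate 2 1777 and 1707.

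Over the shared regions, same-numbered libraries did not deviate together (r = -0.14). This value cannot show whether they were prepared together, and the labels do not say, so both forms were run. With the replicate block 4 member regions moved up and 0 down, and the mean locus score difference was 18.2. Within pair 1 there were 57 gained (33.3%, against 28.1% of all regions) and 42 lost (24.6%, against 26.8%) member regions with a difference of 8.4. Within pair 2 there were 105 (61.4%, against 48.6%) and 2 (1.17%, against 3.84%) with 27.9. With the crossed pairing, added after seeing the data, 5 member regions moved up and 0 down, among 1985 and 1567 of all shared regions.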
